A study of Homo sapiens with 6 samples.

Results

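DNA methylation in mammals is written by a small set of enzymes. DNMT1 copies methyl groups onto the new strand after replication, guided by UHRF1, which recognises hemimethylated CpG sites, while DNMT3A and DNMT3B methylate sites that were bare on both strands. TET1, TET2 and TET3 oxidise 5-methylcytosine, the first step of active demethylation, UHRF2 is a paralog of UHRF1, and MBD2 binds methylated CpG sites and recruits the NuRD repressor complex. Mutations of DNMT3A and TET2 are frequent in acute myeloid leukemia, which makes the balance of these transcripts a question of interest in leukemic blasts.

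These 9 genes, taken by symbol out of 23368 listed, were examined in NB4, an established acute promyelocytic leukemia cell line that carries the PML/RARA fusion. RNA-seq had been carried out on cells left not treated and on cells exposed to 10 µM maltonis, a synthetic hydroxypyrone derived from maltol, for 24 h, with 3 libraries per group. The compound was kept as a stock in distilled water, and both groups were grown in the same medium. The comparison asks how maltonis changes gene expression in these cells. Because a single cell line was used, the 3 libraries of a group measure variation between cultures or preparations of that line.

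Library totals ranged from 18492154 to 38205483 counts, so that 3 counts, taken as the detection floor, correspond to 0.0828 to 0.160 counts per 1000000 (CPM, on TMM-scaled library sizes); this floor reflects counting error alone. All 10 promyelocyte markers held counts in every library. At the threshold used below (FDR under 0.01), 4 of them were higher and 5 lower after maltonis, beside 31.9% and 32.1% of all genes tested. MPO went from 12892 to 15528 CPM in not treated to 7298 to 7553 CPM in treated libraries, and CEBPA from a mean of 254 to 131 CPM. CTSG went from a mean of 109 to 553 CPM, LYZ from 104 to 282 CPM, and ELANE from 3, 6 and 2 counts to 406, 565 and 409 counts, so that the markers moved in both directions. ELANE passed the filter on low counts through the treated libraries, and it enters the count of 4 higher markers. Of 5 erythroid markers none exceeded 3 counts in any library. The 5 T cell markers summed to 43.6 to 45.7 CPM without and 15.4 to 16.3 CPM with maltonis, nearly all from CD3D, while CD3E held at most 2 counts. The 4 B cell markers summed to 19.2 to 29.03 and 10.0 to 12.5 CPM, with MS4A1 at 0. Most of it came from CD79B, which fell from a mean of 21.03 to 10.11 CPM (edgeR FDR 0.000331). The 5 epithelial or stromal markers summed to 38.6 to 39.7 and 29.6 to 31.6 CPM, with COL1A1 at 0 in not treated cells. Most of it came from EPCAM and KRT18, which fell from means of 17.1 to 11.2 and 19.2 to 14.1 CPM (edgeR FDR 0.000862 and 0.000943). KRT8 rose from a mean of 2.62 to 4.86 CPM (edgeR FDR 0.00110). The part of the T cell, B cell and epithelial or stromal markers in the results was not tested. In bulk RNA, fewer cells of a kind and less RNA per cell cannot be told apart. Codes in the names of the deposited libraries part replicate 1 from replicates 2 and 3 in both groups, and their meaning is not stated.

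Maltonis lowered the transcripts of DNMT3B and TET1 several-fold. It raised those of DNMT1 and DNMT3A 1.30-fold and 1.43-fold and lowered that of MBD2 1.27-fold. TET2, TET3, UHRF1 and UHRF2 did not pass the threshold, a false discovery rate (FDR, Benjamini-Hochberg) under 0.01 by the quasi-likelihood method of edgeR over 13209 genes. All 9 genes passed the filter on low counts. Of them, 2 were higher and 3 lower, beside 31.9% of all genes tested that were higher, 32.1% that were lower and 64.0% in either direction, so the count of 5 of 9 is not above the background. Asking in addition for a change beyond 2.5-fold, DNMT3B and TET1 were called, both lower, beside 10.4% of all genes tested lower, 9.96% higher and 20.3% in either direction. In 6 of the 9 genes the groups did not overlap in CPM, beside 76.6% of all genes tested (38.8% higher and 37.8% lower). The median log2 fold change of the 9 genes was 0.02, and that of all genes tested 0.01.

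**Figure D1:**
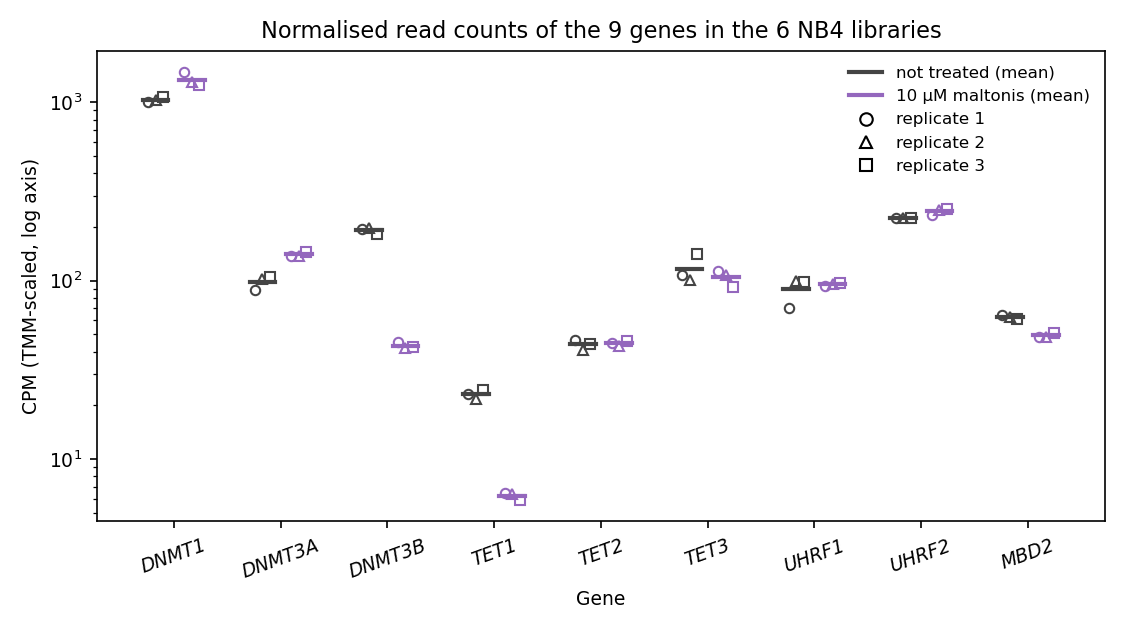
CPM of each gene on a log axis in the 3 not treated (dark) and 3 maltonis-treated (violet) NB4 libraries, with replicates as circles, triangles and squares and the group mean as a line. DNMT3B and TET1 show the widest gaps between groups, whereas the points of TET2, TET3 and UHRF1 overlap.

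Promoter sequences are given for TET1, which fell, and DNMT1, which rose, since CpG sites are the substrate of these enzymes. RefSeq lists 20 windows of 300 bases for the 9 genes on GRCh38.p14, from 250 bases before to 50 after a transcript start, and CpG sites are in capitals below, 5′ to 3′ on the gene’s strand. The TET1 window is at chr10:68560087-68560386 (plus strand), with its start at −319 bases from the one annotated by GENCODE. That of DNMT1 is at chr19:10194904-10195203 (minus strand), its start 182 bases downstream of the nearest principal one. The single DNMT3B window, chr20:32779602-32779901 (plus strand), belongs to an internal start 17467 bases downstream of the first one, and 5 of 6 annotated transcripts begin upstream of it, so it does not stand for the main promoter, which is not analysed here.
TET1: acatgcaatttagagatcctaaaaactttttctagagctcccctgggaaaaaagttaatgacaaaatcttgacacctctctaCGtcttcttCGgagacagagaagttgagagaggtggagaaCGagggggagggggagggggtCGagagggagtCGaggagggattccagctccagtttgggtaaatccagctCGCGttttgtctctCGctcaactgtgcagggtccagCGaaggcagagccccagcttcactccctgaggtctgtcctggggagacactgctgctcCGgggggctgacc
DNMT1: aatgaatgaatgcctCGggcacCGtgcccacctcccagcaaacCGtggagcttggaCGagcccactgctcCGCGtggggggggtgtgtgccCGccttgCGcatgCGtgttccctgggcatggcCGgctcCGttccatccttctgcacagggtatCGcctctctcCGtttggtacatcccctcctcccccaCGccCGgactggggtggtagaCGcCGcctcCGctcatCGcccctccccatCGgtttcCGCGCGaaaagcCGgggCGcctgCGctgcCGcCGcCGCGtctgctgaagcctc

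The TET1 window held 10 CpG sites, that of DNMT1 30 and the internal DNMT3B window 3, against a median of 14 over 35116 windows of all genes. The other TET1 windows held 6 and 11, and those of the 6 genes other than TET1, DNMT1 and DNMT3B held 13 to 46. Of these 6 genes, MBD2, which also fell, had 32 in its window, and DNMT3A, which rose, had 18 to 46. A link between CpG sites and the direction of change was not tested. The E-box CACGTG, searched on both strands and present in 7.26% of all windows, was found in windows of DNMT3A, TET2 and TET3. The E2F-type sequence TTTCGCGC, present in 0.515% of all windows, was found in those of DNMT1 and UHRF1, and its variant TTTGGCGC, present in 0.652%, was not found in any of the 20. The GC box GGGCGG, present in 45.0% of all windows, was found in those of DNMT3A, TET2, TET3, UHRF1, UHRF2 and MBD2. The sequence CCAAT, present in 34.6%, was found in those of DNMT3B, TET1, TET3 and UHRF1. The counts were made on hg19 and do not say which start was used.

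The maintenance enzyme DNMT1 was the most abundant transcript per length of the 9 genes. It was measured at 1003, 1033 and 1065 CPM in not treated replicates 1, 2 and 3 and at 1476, 1292 and 1249 CPM after maltonis. All treated libraries lay above all not treated ones, with treated replicate 1 highest. The means were 1033 ± 31.0 and 1339 ± 120.5 CPM (SD, n = 3), or 0.37 on the log2 scale (SE 0.0737, edgeR FDR 0.00158). The log2 difference was 0.56 in replicate 1 alone and 0.27 in replicates 2 and 3. A log2 fold change at least as large in size was found for 65.6% of all genes tested. Of its annotated exons, 83 bp, 0.847% of their length, overlap S1PR2 on the same strand.

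DNMT3A gave 88.0, 102 and 104 CPM in the not treated and 137, 138 and 146 CPM in the treated libraries. The groups did not overlap. The rise was 0.51 on the log2 scale (SE 0.0754, edgeR FDR 0.000274), with 0.64 in replicate 1 and 0.45 in replicates 2 and 3. Among all genes tested, 55.6% had a change at least as large in size.

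DNMT3B, the other de novo methyltransferase, went the opposite way. The not treated libraries held 195, 197 and 183 CPM and the treated ones 45.4, 42.1 and 42.3 CPM, with little spread within either group. The level was 4.44-fold lower in treated cells, or −2.15 on the log2 scale (SE 0.0629, edgeR FDR 3.53e-08), with −2.10 in replicate 1 and −2.17 in replicates 2 and 3. Of all genes tested, 8.74% had a log2 fold change at least as large in size. The counts do not separate isoforms, of which 6 are annotated for DNMT3B in GENCODE release 29.

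TET1 was the least abundant of the 9 genes per length after maltonis, and in not treated cells its range overlapped that of TET2. Not treated cells gave 23.2, 21.8 and 24.3 CPM and treated cells 6.40, 6.32 and 5.89 CPM, from 124 to 806 counts per library. Every treated library lay far below every not treated one. The fall was 3.72-fold, or −1.90 on the log2 scale (SE 0.0887, edgeR FDR 2.91e-07), with −1.85 in replicate 1 and −1.91 in replicates 2 and 3.

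TET2, the family member most often mutated in myeloid neoplasms, was at 46.7, 40.8 and 44.3 CPM without and 44.8, 43.1 and 45.8 CPM with maltonis. The groups overlapped, and the log2 fold change was 0.02 (SE 0.0723, edgeR FDR 0.790). It was −0.06 in replicate 1 and 0.06 in replicates 2 and 3.

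TET3, the most abundant TET transcript per length, was at 107, 101 and 141 CPM and then 114, 107 and 92.4 CPM. Not treated replicate 3 stood apart from the rest. The log2 fold change was −0.16 (SE 0.132, edgeR FDR 0.308), and 0.00024 without not treated replicate 3. It was 0.09 in replicate 1 and −0.28 in replicates 2 and 3.

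UHRF1 was at 70.6, 100.1 and 97.7 CPM in not treated cells, where replicate 1 was low, and at 93.0, 95.8 and 97.4 CPM with maltonis. Its log2 fold change of 0.09 (SE 0.121, edgeR FDR 0.525) became −0.06 without not treated replicate 1. It was 0.40 in replicate 1 and −0.04 in replicates 2 and 3. UHRF2 was at 225, 224 and 223 CPM and then 234, 249 and 252 CPM. Its groups did not overlap, but the log2 fold change of 0.13 (SE 0.0538, edgeR FDR 0.0524) did not pass the threshold. It was 0.06 in replicate 1 and 0.16 in replicates 2 and 3, and in these 4 libraries, as under total-count or upper-quartile scaling, UHRF2 passed.

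The reader MBD2 fell from 64.2, 62.2 and 61.2 CPM to 48.4, 48.5 and 50.9 CPM. The log2 fold change was −0.34 (SE 0.0601, edgeR FDR 0.000772), with −0.41 in replicate 1 and −0.32 in replicates 2 and 3. Of all genes tested, 68.0% had a change at least as large in size.

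**Figure D2:**
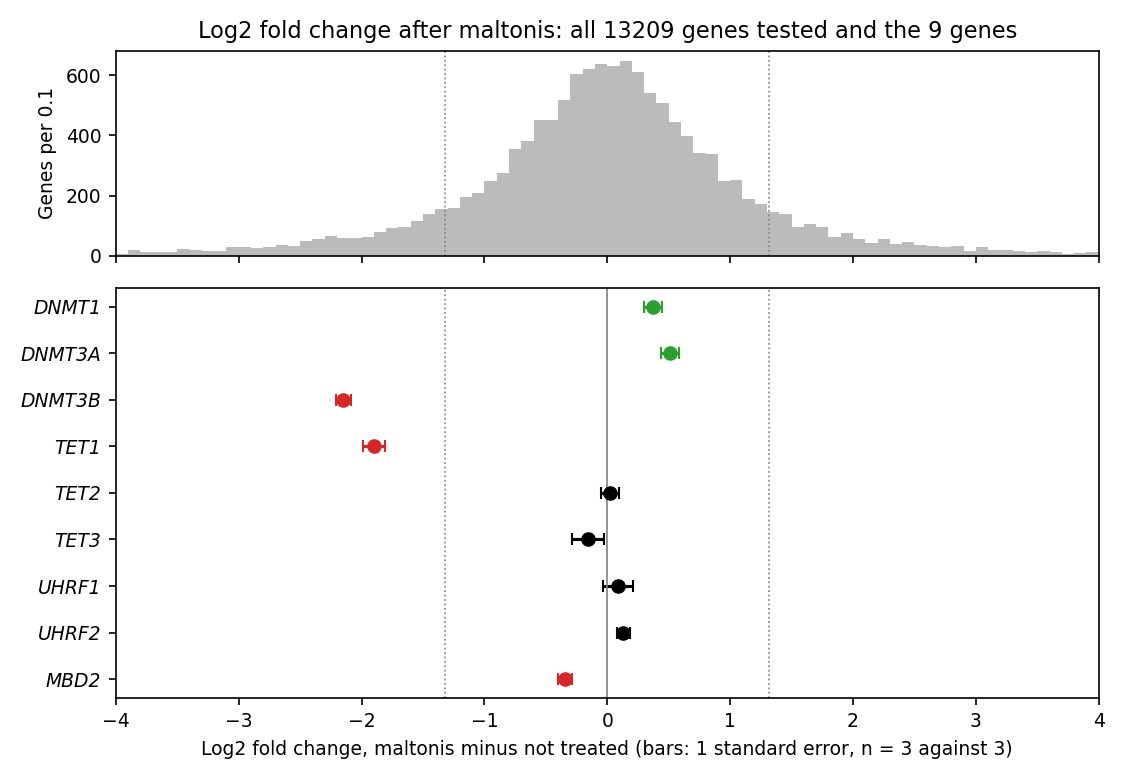
Upper panel, number of genes per bin of log2 fold change (maltonis minus not treated) over all 13209 genes tested. Lower panel, the 9 genes with bars of 1 standard error, lower genes in red, higher in green and genes not past the threshold in black, and dotted lines at a 2.5-fold change. DNMT3B at −2.15 and TET1 at −1.90 lie beyond the lower line, and the other genes lie inside.

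Levels between genes were compared as reads per kilobase per 1000000 reads (RPKM), taking as length every base that any annotated exon of the gene covers. In not treated cells the order was DNMT1 at 105 ± 3.17, DNMT3B at 41.4 ± 1.59, UHRF2 at 22.6 ± 0.0820, UHRF1 at 17.4 ± 3.19, MBD2 at 10.8 ± 0.269, TET3 at 9.49 ± 1.77, DNMT3A at 8.17 ± 0.741, TET2 at 2.67 ± 0.180 and TET1 at 2.49 ± 0.137 RPKM (SD, n = 3). The ranges over the 3 libraries overlapped between MBD2 and TET3, between TET3 and DNMT3A and between TET2 and TET1, and these neighbours were not told apart. After maltonis DNMT3B took place 5, at 9.34 ± 0.399 RPKM, below DNMT3A at 11.7 ± 0.392 RPKM. DNMT3B was then not apart from TET3 at 8.52 ± 0.901 RPKM, nor TET3 from MBD2 at 8.48 ± 0.240 RPKM. TET1, at 0.668 ± 0.0296 RPKM, was clearly under TET2 at 2.71 ± 0.0848 RPKM. The order depends on the length used. With the longest transcript in its place UHRF2 ranked 2 and DNMT3B 3 in not treated cells, although their ranges did not overlap here. The places of TET3 and DNMT3A moved as well in not treated cells, and those of TET3 and MBD2 in treated cells.

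The summed RPKM of the 3 methyltransferases was 152, 156 and 157 without and 172, 152 and 149 with maltonis, ranges that overlap at this gene length. Summed CPM, which uses no length, did not overlap, at 1286 to 1352 without and 1437 to 1658 with maltonis. The make-up of the summed RPKM differed. DNMT3B made up 26.7% ± 1.33 of it without and 5.94% ± 0.221 with treatment (SD, n = 3), and 18.02% and 3.67% with the longest transcript as length. DNMT1 went from 68.0% ± 1.06 to 86.6% ± 0.976, and DNMT3A from 5.27% ± 0.387 to 7.43% ± 0.755. For the TET enzymes the sum was 14.0, 13.1 and 16.8 RPKM and then 12.7, 12.1 and 10.9 RPKM. These RPKM ranges did not overlap at this gene length. Their summed CPM did overlap, at 164 to 210 without and 144 to 165 with maltonis. The share of TET1 went from 17.1% ± 1.33 to 5.63% ± 0.184, that of TET2 from 18.4% ± 2.16 to 22.8% ± 2.23, and that of TET3 from 64.5% ± 3.45 to 71.5% ± 2.39.

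**Figure D3:**
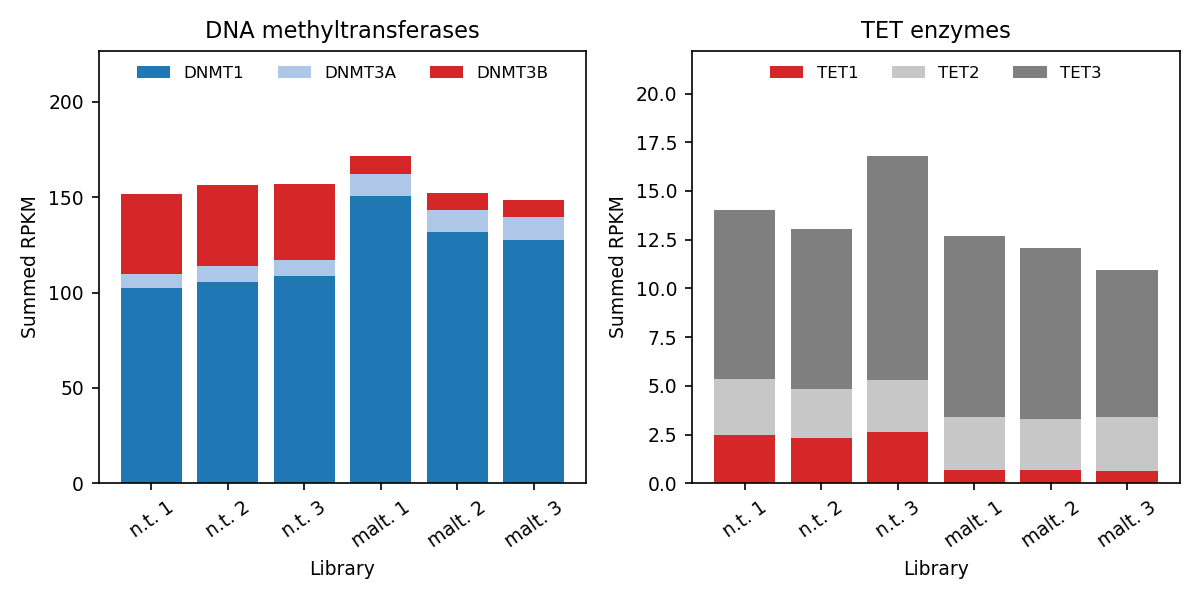
Summed RPKM of the DNA methyltransferases (left) and of the TET enzymes (right) in each library (n.t., not treated; malt., maltonis), stacked by gene. The left stacks reach 152 to 157 RPKM without and 149 to 172 RPKM with maltonis. The DNMT3B segment shrinks in the left stacks and TET1 in the right stacks.

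Ratios within a library do not depend on how libraries are scaled. Their levels do depend on the gene length used, and for summed families the difference between groups does as well. DNMT3B was 5.76, 4.99 and 4.56 times as abundant as DNMT3A without treatment and 0.859, 0.793 and 0.755 times with it, so their order turned over. The log2 ratio differed by −2.66 between groups. The ratio of DNMT3B to DNMT1 differed by −2.52 on the log2 scale and that of TET1 to TET2 by −1.92. Summed methyltransferases were 9.34 to 11.97 times the summed TET enzymes without and 12.6 to 13.6 times with maltonis, a log2 difference of 0.32. In these 4 ratios the groups did not overlap, and each had p = 0.1 by a two-sided exact permutation test, which cannot go lower with 3 against 3 (adjusted over 7 ratios, 0.175). The log2 differences of UHRF1 to DNMT1, TET3 to TET2 and UHRF2 to UHRF1 were −0.26, −0.17 and 0.02, with overlapping groups (exact permutation p = 0.3, 0.6 and 1.0, adjusted 0.42, 0.7 and 1.0).

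The genes whose profile over the 6 libraries lay nearest that of DNMT3B, by Euclidean distance of log2 CPM centred on each gene’s mean, were LPIN1, SLC30A1, DGAT2, VKORC1 and FADS2. Their distances were 0.0891, 0.111, 0.131, 0.136 and 0.141, and their log2 fold changes −2.12, −2.16, −2.20, −2.16 and −2.09. Since the genes were picked by this distance, log2 fold changes close to that of DNMT3B follow from the choice. Shared regulation was not tested. Among the 9 genes TET1, the only other one with a fall beyond 2.5-fold, was nearest, at 0.380, and the others lay at 2.21 to 3.27.

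Beyond the 9 genes, lists of genes that work with them were read from the same fit, each beside the background of 31.9% higher and 32.1% lower. Among related methyltransferases, TRDMT1, which methylates transfer RNA, fell from 7.56, 7.76 and 7.03 CPM to 2.17, 2.09 and 2.20 CPM, a log2 fold change of −1.79 (edgeR FDR 1.57e-06). DNMT3L, a catalytically inactive cofactor of the de novo enzymes, was sparse, with 7, 12 and 8 counts in not treated and 12, 12 and 17 counts in treated libraries, and did not pass (edgeR FDR 0.0853).

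Of 9 other readers of methylated DNA that were tested, 6 rose and 1 fell, with a median log2 fold change of 0.37. MBD6 and MBD1 rose most, by 1.81 and 0.97 on the log2 scale. ZBTB38, a zinc finger reader, fell by 1.87 on the log2 scale. Without treated replicate 1 or 2, 3 of these readers rose.

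Among 17 partners of DNMT1 and UHRF1 in maintenance methylation, 4 rose and 7 fell, with a median of −0.01. The largest falls were those of KDM1A, a histone demethylase that also acts on DNMT1, at −2.09, and SETD7, a lysine methyltransferase with DNMT1 among its substrates, at −1.75. CDCA7, which partners the remodeller HELLS, fell from 311 to 94.7 CPM, whereas HELLS rose from 84.4 to 135 CPM. RB1 and the acetyltransferase KAT5 rose most, at 0.81 and 0.73. PCNA, the clamp that holds DNMT1 at the fork, was at 370 to 398 CPM without and 398 to 432 CPM with maltonis and did not pass.

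Of 20 tested genes of active demethylation and TET regulation, 11 rose and 5 fell, with a median of 0.36. CXXC5, a zinc finger protein related to TET partners, fell by 2.95 on the log2 scale, and PARP1, which takes part in base excision repair, by 1.28. OGT, which glycosylates TET proteins, fell from 244 to 122 CPM. TDG, the glycosylase that removes oxidised 5-methylcytosine, fell by 0.28 on the log2 scale (edgeR FDR 0.00212). GADD45B rose from 29.4 to 60.7 CPM, and GADD45G, also a stress-induced factor linked to demethylation, from 7, 7 and 4 counts to 40, 76 and 50 counts. GADD45G passed the filter on low counts through the treated libraries, as did NEIL1, a repair glycosylase that did not pass the test, and both enter this list’s count of tested genes and its median.

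Among 13 enzymes that set 2-oxoglutarate, the TET cosubstrate, and its competitors, 1 rose (2 without not treated replicate 1) and 3 fell, with a median of −0.04. IDH1, which makes 2-oxoglutarate, rose from 105 to 176 CPM, while FH, which removes the TET inhibitor fumarate, fell from 144 to 64.6 CPM. D2HGDH, which clears 2-hydroxyglutarate, fell by 0.55 on the log2 scale.

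In the methionine and folate cycle, which supplies the methyl group, 5 of 17 tested genes rose and 6 fell, with a median of 0.04. SLC19A1, the reduced folate carrier, fell from 90.6 to 17.8 CPM. MTHFD1L, a mitochondrial folate enzyme, fell by 0.68 on the log2 scale.

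Of 12 subunits of the NuRD complex that MBD2 recruits, 2 rose and 6 fell, with a median of −0.30. Leaving out any library but not treated replicate 1, 1 rose. The remodeller CHD4 fell from 737 to 256 CPM and CDK2AP1 from 94.2 to 42.4 CPM, whereas CHD3, the paralog of CHD4, rose from 106 to 197 CPM. Of 21 S phase genes, a context for DNMT1 and UHRF1, whose transcripts are cell cycle regulated, 3 rose and 8 fell, with a median of −0.18. GINS1 and GINS2, of the replicative helicase, fell by 0.63 and 0.59 on the log2 scale, and the licensing factor CDT1 rose by 1.08.

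**Figure D4:**
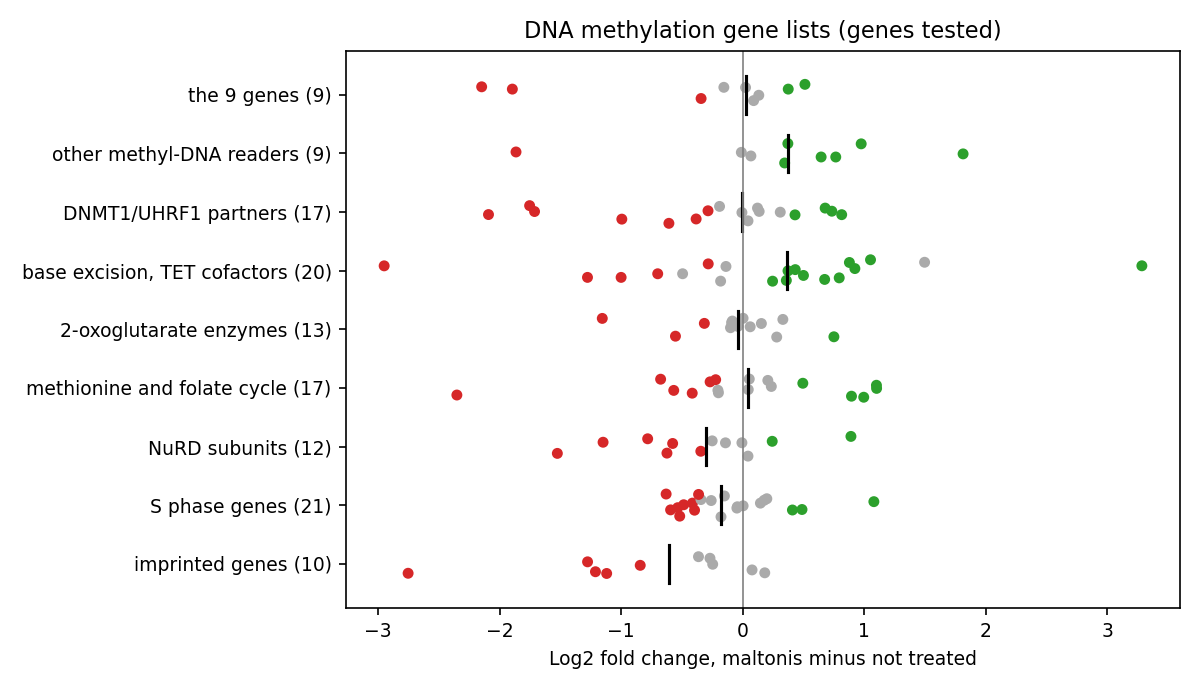
Log2 fold change (maltonis minus not treated) of every tested gene in the 9 genes and in each list with at least 9 tested genes, the number of genes in brackets, with lower genes in red, higher in green, genes not past the threshold in grey and the list median as a black line. Both directions occur in most lists, with medians from −0.60 for imprinted genes to 0.37 for other readers of methylated DNA.

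Genes that depend on DNA methylation for silencing were read last. Of 30 germline genes, 19 had no count in any library and 26 had at most 3 counts in every library, and their summed level was 0.469 to 0.799 CPM without and 3.62 to 4.06 CPM with maltonis. Most of the level in treated cells came from TEX14, a germ cell bridge protein, with 0, 4 and 11 counts without and 68, 118 and 87 counts with maltonis, the only gene of the list that passed the filter, which it did through the treated libraries. Outside the naming rule and chosen after their values were seen, MAGEB2 had no counts without and 2, 4 and 3 counts with maltonis, and SYCP3 had 11, 9 and 14 and then 1, 8 and 4 counts. Of 20 imprinted genes, whose expression from 1 parental allele is set by methylation, 10 were tested and 5 fell, with a median of −0.60. MEST fell from 104 to 15.4 CPM, and the cell cycle inhibitor CDKN1C from 3.29 to 1.323 CPM. PEG10, also outside the naming rule and chosen after its values were seen, was not among those tested. It had no counts without and 11, 8 and 13 counts with maltonis.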

How the data were processed

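Per the labels, total RNA went into stranded, rRNA-depleted libraries. The authors deposited 1 table of HTSeq read counts per library, whole numbers per gene symbol without normalization, and the submitters’ processing notes also name TopHat, Bowtie2 and hg19. Tool versions, the annotation and the strand setting of the counting are not given in the sources used here, so overlapping and antisense genes and paralogs are uncertain where reads could be shared. Replicate libraries differed beyond sampling noise (chi-square per degree of freedom 4.16 to 33.1) and were counted separately. Pairs with replicate 1 gave 21.9 and 33.1 in not treated cells, against 10.8 for replicates 2 and 3. In treated cells they gave 13.0 and 15.7, against 4.16. The edgeR p-values set the difference between groups against the spread between these libraries, which was estimated with information shared across genes. The test was that of edgeR 4.0.16 in R 4.3.3 (filterByExpr, TMM, quasi-likelihood test, group as the only term, Benjamini-Hochberg adjustment over 13209 genes). RPKM used exon lengths of GENCODE release 29 on GRCh38, found for all 9 genes. Promoters are RefSeq windows on GRCh38.p14. Figures were drawn with matplotlib 3.10.9 and exact permutation tests run with scipy 1.17.1 in Python 3.11.15.

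The genes and lists were chosen with earlier results of these data known. Named are the 9 genes, up to 2 called genes with the largest rise and 2 with the largest fall in each list with others needed for background, and the 5 nearest profiles to DNMT3B. A gene that the rule names is not reported here. Alternatives covered scaling, the filter, DESeq2 1.42.0, the likelihood ratio test of edgeR, the FDR, the replicate block, each library left out, gene length and RPKM on total counts.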

Additional observations from a re-analysis of the deposited data

How the results depend on the processing

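The calls on DNMT1, DNMT3A, DNMT3B, TET1 and MBD2 kept their direction and passed the threshold under every alternative with a test. UHRF2 passed with total-count scaling (log2 fold change 0.25), upper-quartile scaling (0.22) and in replicates 2 and 3 only (0.16). Total-count scaling moved the median of all genes from 0.01 to 0.13. Of the genes that did not pass, UHRF2 kept its sign and the other 3 changed it under some alternatives: in replicate 1 alone TET2 was at −0.060 and TET3 at 0.092, and in replicates 2 and 3 UHRF1 was at −0.038. Leaving out 1 library gave −0.036 to 0.056 for TET2, −0.26 to 0.00024 for TET3 and −0.063 to 0.17 for UHRF1. In replicate 1 alone the log2 ratio differences were −2.66 for DNMT3B to DNMT1, −1.80 for TET1 to TET2, 0.15 for TET3 to TET2 and −0.34 for UHRF2 to UHRF1, and the last ranged from −0.069 to 0.19 with 1 library left out. With the longest transcript as length, not treated cells ranked UHRF2 2, DNMT3B 3, DNMT3A 6 and TET3 7, and treated cells MBD2 6 and TET3 7 (6 to 7 for both with 1 library left out). The shares without and with maltonis were then 77.8% and 90.9% for DNMT1, 4.21% and 5.45% for DNMT3A, 18.02% and 3.67% for DNMT3B, 14.7% and 4.70% for TET1, 25.6% and 30.9% for TET2, and 59.7% and 64.4% for TET3. Genes called higher among 2-oxoglutarate enzymes numbered 2 with total-count or upper-quartile scaling, the replicate block, replicates 2 and 3 only or an FDR under 0.05, and 1 to 2 with 1 library left out. With 1 library left out they numbered 3 to 6 for other readers, 1 to 2 for NuRD and 0 to 1 for imprinted genes, the last also 1 without the filter. The cause was not tested. Replicate numbers were not shown to pair the libraries, with same-number correlations of 0.301, 0.0852 and 0.161 for replicates 1, 2 and 3. Pairs of replicate 1 with replicate 2 or 3 of the other group gave −0.232 to −0.162. Pairs of replicate 2 with replicate 3 gave 0.123 and 0.139. With the replicate block no call on the 9 genes changed (DNMT3B −2.15, TET1 −1.89, DNMT1 0.37, DNMT3A 0.51, MBD2 −0.34). Depth was not low for any of the 9 genes, which had at least 124 counts in every library.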
